A study of Mus musculus with 4 samples.

Results

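The comparison described here was between Glo1 heterozygous and wild-type mice that both ate a sucrose diet. It rested on 2 of the 4 arrays of the series: 1 array of the heterozygous group on sucrose and 1 of the wild-type group on sucrose. Arrays were assigned to the groups by their labels. The other 2 arrays held the same genotypes on a starch diet, and their values are given beside the sucrose values. Per the labels, all groups were B6J mice aged 3 months, weaned on postnatal day 21 onto the starch or the sucrose diet and kept on it for about 70 days. The prefrontal cortex was removed after cervical dislocation and decapitation, and the total RNA of 3 mice per group was mixed into 1 pool. Of that pool, 200 ng was labelled with Cy3 and hybridised to 1 one-colour Agilent array. The kind of Glo1 allele and the sex of the mice were not given in the sources used here.

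Glo1 encodes glyoxalase 1, which with glutathione and glyoxalase 2 detoxifies methylglyoxal, a reactive dicarbonyl formed as a side product of glycolysis. Methylglyoxal that is not removed modifies proteins into advanced glycation end products. The enzyme is found in all tissues, and the brain, which runs on glucose, expresses it in neurons and glia. The comparison asks what a lowered Glo1 dose does to the cortical transcriptome when the diet is high in sugar.

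Each group was a single pool on a single array, so no change below has an error or a p-value, and the spread between mice of a group was not measured. All 4 arrays were on the same slide with 1 group per position, so slide position and genotype cannot be told apart. Between 77.6% and 80.2% of the 59305 non-control spots on each array were well above background, and no spot was saturated. A level is the processed signal of a probe as a multiple of the 75th percentile of its array. A change is the log2 level on the heterozygous array minus that on the wild-type array. Changes were counted at 2-fold or more, over the 42094 probes that were well above background on all 4 arrays. The brightest probe stood for its gene, which gave 20064 genes. In bulk tissue, fewer cells of a type and less RNA per cell cannot be told apart.

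Glo1 was the check of the labels, and it was lower on the heterozygous array by all 3 of its probes. The probe at chr17:30729951-30730010 (build mm9) read 4.04 on the starch wild-type array, 5.53 on the sucrose wild-type array, 2.74 on the starch heterozygous array and 3.04 on the sucrose heterozygous array. The wild-type arrays were thus both above the heterozygous ones, and the wild-type array on sucrose was the highest of the 4. The change on sucrose was -0.86 for this probe, -0.83 for the probe at chr17:30731083-30731142 and -0.87 for the probe at chr17:30730503-30730562. The heterozygous array carried 55.0%, 56.3% and 54.8% of the wild-type level by these probes. On starch, the same probes changed by -0.56, -0.60 and -0.56. Which part of the transcript these probes read relative to the mutated allele was not given in the sources used here. Genes beside Glo1 on chromosome 17 did not follow it: within 1 Mb, 41 probes of 25 genes had a median change of -0.01, of which 2 were higher and 0 lower by 2-fold, against 1.08% and 0.349% of all probes. The lowest of them, 0710001D07Rik, changed by -0.49, and the highest, Umodl1, by 1.47. Within 5 Mb, 545 probes of 300 genes had a median change of -0.03, with 5 higher and 2 lower by 2-fold. There the lowest was Gm15320 at -1.49, and the highest, a probe without a gene name, changed by 2.45.

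**Figure D1:**
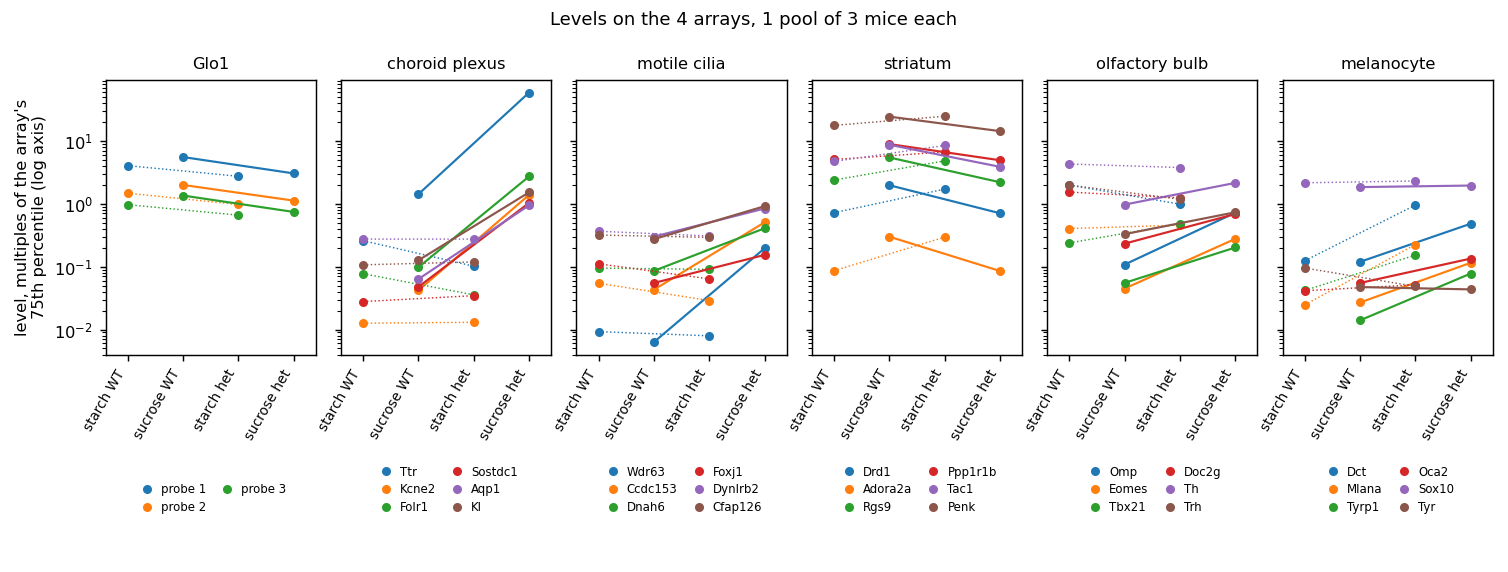
Levels on the 4 arrays for the 3 Glo1 probes and for 6 genes each of 5 gene lists, as multiples of the array's 75th percentile on a log axis. Solid lines join the sucrose arrays (wild-type, WT, to heterozygous, het) and dotted lines the starch arrays, 1 pool of 3 mice per point. Glo1 was lower in the heterozygotes on both diets, the choroid plexus genes were high on the sucrose heterozygous array, and the striatal genes sloped down on sucrose and up on starch.

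Among genes past 2-fold, more were higher than lower in the heterozygotes, although over all genes 9036 were higher and 11028 lower. With no filter on dim probes the share of higher probes among those past 2-fold was 52.1%. On sucrose, 603 of 42094 probes (1.43%) differed by 2-fold or more, 456 of them higher (1.08%) and 147 lower (0.349%) on the heterozygous array. Counted by gene, 348 (1.73%) passed 2-fold, 278 higher (1.39%) and 70 lower (0.349%). At 4-fold there were 67 genes higher and 12 lower, and at 8-fold 24 higher and 2 lower. The median change of all genes was -0.02, and the quartiles over probes were -0.12 and 0.10. The probes just inside the 2-fold limit had changes of 1.00061 and -1.00399, and those just outside 0.997559 and -0.998227. Besides these, of the 56605 probes of the array, 635 were measured on the heterozygous side only, the wild-type signal being at background. For 254 of them the heterozygous level was at least 2-fold higher. On the wild-type array alone 1779 probes were measured, and 178 of them were at least 2-fold lower in the heterozygotes. The choice by array fixed the direction of both sets, so these counts carry no information on direction.

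The changes were mostly among dim probes. Of the 603 probes, 54.7% were in the dimmest quartile of signal and 2.82% in the brightest. Where a gene with a changed probe had another measured probe, the other probe moved the same way by 1.5-fold or more in 38 of 127 cases in the dimmest quartile. The same held in 50 of 77 cases in the next quartile, in 24 of 30 in the next and in 9 of 12 in the brightest. Higher calls were backed by another probe in 101 of 181 cases (55.8%) and lower calls in 20 of 65 (30.8%). A probe printed 10 times gave Lgals3, a lectin of activated phagocytes and epithelia, a change of 1.23, while the brightest Lgals3 probe changed by 2.01, and another 10-spot probe gave Tuba1c, a tubulin, a change of 1.25. The SD of the difference between spots was 0.121 for the Lgals3 probe and 0.134 for the Tuba1c probe. Over the repeated probes its median was 0.129 in the second dimmest quartile, 0.109 in the next and 0.0603 in the brightest, and no repeated probe lay in the dimmest quartile. These SDs cover spot noise only and not mice.

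**Figure D2:**
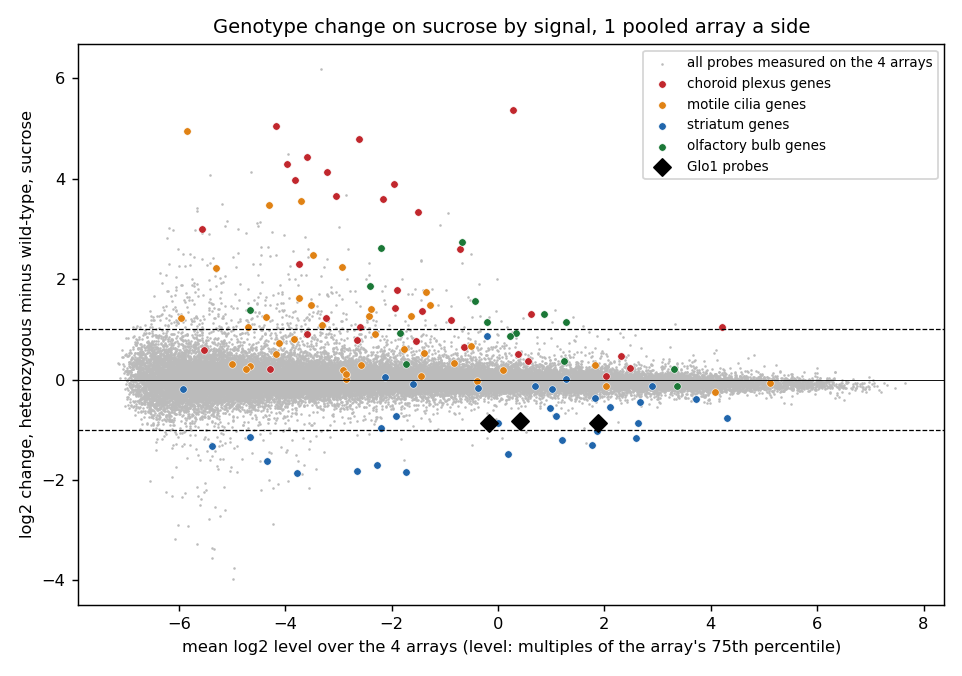
Log2 change of the heterozygous against the wild-type array on sucrose (y axis) by mean log2 level over the 4 arrays (x axis), 1 point per probe, with list genes and Glo1 coloured. Dashed lines mark 2-fold. Most choroid plexus, ciliary and olfactory bulb genes lie above 0 over the whole range of levels, while most striatal genes and the 3 Glo1 probes lie below it.

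The 30 gene lists held 705 genes, of which 680 were measured, 58 being higher and 18 lower by 2-fold or more, against 1.39% and 0.349% of all genes. Since the lists were chosen with earlier results of these data known, a list's count beside the share of all genes is a description and not independent evidence, here and for each list below. Most of these genes came from a few lists. Most or all measured genes of the choroid plexus, motile cilia, olfactory bulb and melanocyte lists were higher on the heterozygous array. Most genes of striatal neurons were lower. Lists for glia, vessels, blood, activity, stress and metabolism had medians between -0.16 and 0.15.

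**Figure D3:**
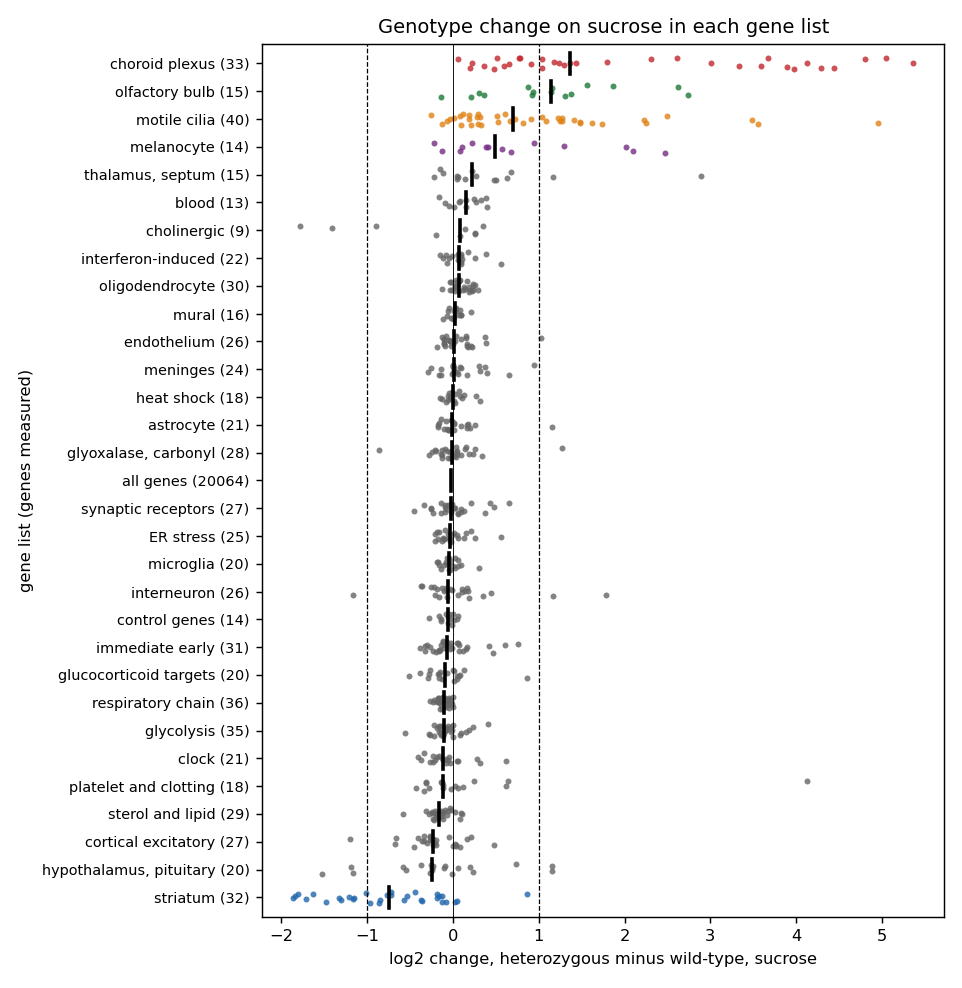
Log2 change on sucrose of each measured gene (points) in the 30 lists, with the list's median (black bar) and, as a bar alone, the median of all 20064 genes. Dashed lines mark 2-fold. The choroid plexus list has the highest median, 1.36, and the striatal list the lowest, -0.74.

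The choroid plexus is the epithelium in the ventricles that secretes cerebrospinal fluid, and its genes made up most of the 12 highest, beside the ciliary gene Wdr63 and the unlisted genes Dsp and Wfdc2. All 33 measured genes of the list of 36 were higher on the heterozygous array, 22 of them by 2-fold or more against 1.39% of all genes, with a median change of 1.36. The same list had a median of 0.06 on starch. Ttr, the carrier of thyroxine and retinol that this epithelium secretes, had the highest change of the genes measured on all 4 arrays. Its level was 0.26 on the starch wild-type array, 1.42 on the sucrose wild-type array, 0.10 on the starch heterozygous array and 58.7 on the sucrose heterozygous array, a change of 5.37 (41.3-fold) on sucrose. A second Ttr probe changed by 6.18. The sucrose heterozygous array thus stood far above the other 3, and of these the wild-type sucrose array was the highest.

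Transporters and channels of this epithelium were also highest on the sucrose heterozygous array. Kcne2, a subunit of potassium channels, read 0.01, 0.04, 0.01 and 1.39 on the starch wild-type, sucrose wild-type, starch heterozygous and sucrose heterozygous arrays, a change of 5.05. Folr1, a folate receptor that carries folate into the cerebrospinal fluid, read 0.08, 0.10, 0.04 and 2.72 in that order, a change of 4.80, and its second probe changed by 1.94. For both genes the sucrose heterozygous array alone was high. Aqp1, the water channel of the fluid-facing membrane, read 0.27, 0.06, 0.27 and 0.95, a change of 3.90. Here the wild-type sucrose array was also below both starch arrays, so part of the difference lay on that side. Clic6, of the chloride intracellular channel family, read 0.10, 0.26, 0.23 and 2.65, a change of 3.34. Kcnj13, an inward rectifier potassium channel, changed by 2.61, Slc29a4, a monoamine transporter, by 1.30, Car12, a carbonic anhydrase, by 1.43 and Trpv4, a cation channel, by 1.79. Slc4a5, a sodium bicarbonate cotransporter, was measured on the sucrose arrays but was not well above background on every starch array, and it changed by 5.76.

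Secreted and regulatory genes of the plexus were higher as well. Sostdc1, a secreted antagonist of BMP and Wnt signals, changed by 4.44 and Kl, the gene of klotho, by 3.59. Otx2, the homeobox factor that plexus cells express, read 0.06, 0.07, 0.05 and 0.94 and changed by 3.67, while its second probe changed by 0.28. Krt18, an epithelial keratin, changed by 4.29, and its partner Krt8, measured on both sucrose arrays only, by 2.42. Steap1, a metalloreductase family member, changed by 3.98 and F5, coagulation factor V, by 4.13. F5 was the only one of 18 measured platelet and clotting genes past 2-fold, against 1.73% of all genes, and the median of that list was -0.12. Members past 2-fold at a smaller size were Tmem72 at 3.00, Lbp at 2.31, Abca4 at 1.36, Cldn1 at 1.23, Msx1 at 1.18, Enpp2 at 1.04 and Wfikkn2 at 1.04. For Enpp2, the gene of autotaxin, the other probes changed by 0.00 to 0.32, and for Abca4 the other probe by -0.07. Calml4 changed by 4.54 and was measured on the sucrose arrays only. Prlr, the prolactin receptor, changed by 0.91 by its brightest probe and by 1.31 to 4.49 by the others. The lowest members were Htr2c, a serotonin receptor that cortical neurons also express, at 0.06 and Slco1a5 at 0.20. The summed level of the 33 genes was 37.0 on the starch wild-type array, 38.1 on the sucrose wild-type array, 38.6 on the starch heterozygous array and 135.5 on the sucrose heterozygous array. Ttr carried much of that sum, and without it the other 32 genes summed to 36.8, 36.7, 38.5 and 76.8. How much ventricular tissue the dissections held was not tested.

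Genes of motile cilia, the beating cilia of ependymal cells that line the ventricles, were also higher. Of the 42 genes 40 were measured, 36 were higher and 4 lower on the heterozygous array, and 17 were higher by 2-fold or more against 1.39% of all genes. The median change was 0.70, against -0.13 on starch, and over probes above the median signal it was 0.31 on sucrose. The summed level of the 40 genes was flat, at 68.3, 67.5, 65.8 and 68.1 on the starch wild-type, sucrose wild-type, starch heterozygous and sucrose heterozygous arrays, while the median level was 0.132, 0.137, 0.127 and 0.223. Wdr63, a subunit of inner dynein arms, read 0.009 on the starch wild-type array, 0.006 on the sucrose wild-type array, 0.008 on the starch heterozygous array and 0.20 on the sucrose heterozygous array, a change of 4.96. With normexp background correction that change was 2.49. Ccdc153 read 0.05, 0.04, 0.03 and 0.51 and changed by 3.56. For both, the sucrose heterozygous array was the one high array. Foxj1, the master transcription factor of motile cilia, read 0.11, 0.05, 0.06 and 0.15, a change of 1.48 on sucrose and -0.79 on starch. In Foxj1 the starch wild-type array came close to the sucrose heterozygous one, so the groups were less far apart. Rfx2, which acts with Foxj1, changed by 1.04, with 0.18 for its other probe, and Rfx3 by 0.29.

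Dynein genes, which drive the ciliary beat, differed among themselves. Dnah11 changed by 2.49, Dnah6 by 2.25 and Dnah9 by 1.27, whereas Dnah7b changed by 0.52, Dnah5 by 0.09, Dnaic2 by 0.01 and Dnaic1 by -0.03. Other members past 2-fold were 1700012B09Rik at 3.49, 1700024G13Rik at 2.23, Cfap126 at 1.74, Mlf1 at 1.62, Dynlrb2 at 1.49, Cfap43 at 1.41, Tekt1 at 1.27, Ccdc40 at 1.25, Spag16 at 1.23 and Cfap52 at 1.09. Of these, 1700024G13Rik was also higher on starch, by 2.63. For 1700012B09Rik and Dnah11 the wild-type sucrose array was the low one: 1700012B09Rik read 0.09 on starch wild-type, 0.01 on sucrose wild-type, 0.06 on starch heterozygous and 0.11 on sucrose heterozygous. The 4 lower members were Spef2 at -0.26, Drc1 at -0.12, Mcidas at -0.07 and Dnaic1, and the other Spef2 probe changed by 2.29. Tmem212, measured on both sucrose arrays only, changed by 5.34, and Ak7, measured on the heterozygous array, was at least 1.66-fold higher.

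RFX factors bind DNA at sites that hold the half-site GTTGCC, and the promoters of ciliary genes carry it often, so the windows around it are printed for 4 members that passed 2-fold. RefSeq promoters (GRCm38.p6, 250 bases before the gene's start) were matched for 32 of the 40 measured genes, as 38 promoters. The half-site GTTGCC or its reverse complement GGCAAC was in 16 of the 38 (42.1%), against 10.4% of all 32851 promoters of that length. The median change was 0.52 for the 16 genes with it and 0.85 for the 16 matched genes without it, so the genes with it did not have the larger changes. The match is a description of the sequence and shows no binding. Of the other motifs searched on both strands, the OTX core TAATCC (reverse GGATTA) was in 3 of 38 choroid plexus promoters (7.89%, against 6.25% of all), and the E-box CACGTG in 6 of 26 clock gene promoters (23.1%, against 6.02%). The windows below run 5′ to 3′ on the gene's strand, with the half-site or its reverse complement in capitals: Ccdc153 at chr9:44240498-44240557 (plus strand), 1700012B09Rik at chr9:14771076-14771135 (minus strand), Mlf1 at chr3:67373965-67374024 (plus strand) and Tekt1 at chr11:72361883-72361924 (minus strand).
Ccdc153: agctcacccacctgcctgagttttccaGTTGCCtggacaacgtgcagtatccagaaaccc
1700012B09Rik: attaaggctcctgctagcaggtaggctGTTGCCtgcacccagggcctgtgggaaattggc
Mlf1: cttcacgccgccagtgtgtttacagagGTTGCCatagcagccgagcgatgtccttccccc
Tekt1: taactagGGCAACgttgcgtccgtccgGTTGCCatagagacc

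Neuronal genes of the striatum, the structure below the frontal cortex that receives dopamine, were lower in the heterozygotes on sucrose. Of the 33 genes 32 were measured, 29 were lower and 3 higher, and 12 were lower by 2-fold or more against 0.349% of all genes, with a median change of -0.74. On starch the direction was the other way: the median was 0.41, 7 genes were higher and 1 lower by 2-fold, where 67 of all genes were higher (0.334%), 95 lower (0.473%) and 162 past 2-fold in all (0.807%). The summed level of the 32 genes was 79.2 on the starch wild-type array, 116.8 on the sucrose wild-type array, 105.6 on the starch heterozygous array and 76.2 on the sucrose heterozygous array. By the sum, which bright genes such as Penk weigh on, the wild-type sucrose array and the heterozygous starch array were the high ones. The median level was 1.28, 1.84, 1.59 and 1.56 in the same order, so by it the sucrose heterozygous array was level with the starch heterozygous one.

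Most receptors of the striatal projection neurons followed the order of the sums. Drd1, the D1 dopamine receptor of the direct pathway, read 0.72 on the starch wild-type array, 1.97 on the sucrose wild-type array, 1.71 on the starch heterozygous array and 0.71 on the sucrose heterozygous array. Its change was -1.48 on sucrose and 1.25 on starch, and its second probe gave -1.61 on sucrose. Adora2a, the adenosine receptor of the indirect pathway, read 0.09, 0.30, 0.30 and 0.09 in that order, a change of -1.81. Receptors of both pathways were thus lower on sucrose. Drd2, the D2 receptor, was dim, with 0.03, 0.03, 0.02 and 0.01, and changed by -1.32 on sucrose and -0.22 on starch. Gpr6, an orphan receptor of the indirect pathway, changed by -1.71, with -0.73 for its other probe.

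Signalling proteins, peptides and factors of the same neurons followed. Rgs9, which switches off G proteins behind dopamine receptors, read 2.38, 5.45, 4.80 and 2.20 and changed by -1.31, with its other probes between -1.31 and -0.56. Scn4b, a sodium channel subunit, changed by -1.02, and Ppp1r1b, which encodes DARPP-32, by -0.86, with -0.81 for its second probe. Penk, the enkephalin precursor, read 17.6, 24.3, 24.7 and 14.3, a change of -0.77 by both probes. Tac1, the substance P precursor, read 4.71, 8.68, 8.45 and 3.87, a change of -1.17, with other probes from -1.17 to -0.11. Pdyn, the dynorphin precursor, changed by -0.54. Six3, a homeobox factor, changed by -1.63, Serpina9 by -1.85 with -1.71 for its other probe, Ido1 by -1.86 and Sh3rf2 by -1.15. The factor Isl1 was measured on the sucrose arrays and changed by -2.46. The 3 higher genes were Lrrc10b at 0.86, Ebf1 at 0.04 and Actn2 at 0.02.

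Cholinergic neurons, which sit in the striatum and basal forebrain, gave a mixed list. Of 9 measured genes 2 were lower by 2-fold, against 0.349% of all genes. Slc10a4, a vesicular protein, changed by -1.79 and Slc5a7, the choline transporter, by -1.41. Slc18a3, the vesicular acetylcholine transporter, changed by -0.90 and Chat by 0.25, with other Chat probes from -0.22 to 0.17. The list's median was 0.08, and it turned negative when probes dim on the starch arrays were let in.

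All 27 genes for cortical excitatory neurons and layers and all 26 for interneurons were well above background on the 4 arrays. So were 680 of the 705 genes of all lists, so this detection is no check of the labelled tissue. Of the excitatory genes 19 of 27 were lower, with a median of -0.23 and 1 gene lower by 2-fold, against 0.349% of all genes. The share of lower genes is near the 70.1% of all genes in the brightest quartile that were lower, with a median of -0.05 there. The gene past 2-fold was Foxp2, a factor of deep-layer and of striatal neurons, which read 0.05, 0.12, 0.08 and 0.05 and changed by -1.20. Ccn2, a marker of the deepest layer, changed by -0.67 and Rprm, a deep-layer gene, by -0.67, while Neurod6 changed by 0.48 and Neurod2 by 0.22. Slc17a7, the vesicular glutamate transporter of cortical neurons, changed by 0.08 and Pcp4 by -0.26. Interneuron genes had a median of -0.05, which was 0.00 under cyclic loess. Of the 26, 2 were higher and 1 lower by 2-fold, against 1.39% and 0.349% of all genes. The lower one was Tac1, also a striatal gene, at -1.17. Pvalb, the calcium-binding protein of fast-spiking interneurons, read 5.54, 6.93, 5.25 and 5.33, a change of -0.38. Cck changed by -0.08, whereas Calb2, calretinin, changed by 1.16 with 1.14 for its second probe and the homeobox gene Prox1 by 1.79 with 1.59. Calretinin also marks thalamic and olfactory neurons, and Prox1 also marks granule cells of the hippocampus.

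Olfactory bulb genes were higher on the heterozygous array, against a wild-type sucrose array that was the lowest of the 4. Of 15 genes measured, 14 were higher and 8 were higher by 2-fold against 1.39% of all genes, and the median change was 1.15 on sucrose and -0.05 on starch. Omp, the protein of mature olfactory sensory axons, read 1.98 on the starch wild-type array, 0.11 on the sucrose wild-type array, 0.98 on the starch heterozygous array and 0.72 on the sucrose heterozygous array, a change of 2.74. Eomes, a factor of mitral and tufted cells, read 0.40, 0.04, 0.46 and 0.28, a change of 2.62, and Tbx21, of the same cells, changed by 1.87. Th, the rate-limiting enzyme of dopamine synthesis and a marker of bulb interneurons, read 4.29, 0.97, 3.77 and 2.15, a change of 1.15 with 1.25 for its second probe. In all 4 genes the sucrose heterozygous array lay below both starch arrays. Doc2g changed by 1.56, Scgn by 1.38, Nmb by 1.30 and Trh by 1.16, and Meis2, also a striatal gene, by -0.14. The summed level of the 15 genes was 42.4, 23.4, 42.2 and 29.8 on the starch wild-type, sucrose wild-type, starch heterozygous and sucrose heterozygous arrays. S100a5, a calcium-binding protein of olfactory sensory neurons that was on no list, read 1.71, 0.06, 0.88 and 0.52 and changed by 3.08. The part of dissection borders in these values was not tested.

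Most pigment cell genes were higher in the heterozygotes on both diets. Of 14 genes measured, 12 were higher and 4 were higher by 2-fold on sucrose against 1.39% of all genes, with a median of 0.49. That median was 0.32 with normexp background correction, 0.38 above the median signal, 0.57 over probes measured on both sucrose arrays and 0.59 with the mean of a gene's probes. On starch 11 were higher and 3 lower, and 4 were higher by 2-fold against 0.334% of all genes, with a median of 0.19. Dct, which makes the brown-black pigment precursor, read 0.12 on the starch wild-type array, 0.12 on the sucrose wild-type array, 0.95 on the starch heterozygous array and 0.48 on the sucrose heterozygous array. Its changes were 2.01 on sucrose and 2.94 on starch, but its other probe changed by 0.08 on sucrose. Mlana, a melanosome protein, read 0.03, 0.03, 0.23 and 0.12 and changed by 2.10, with 2.49 for its second probe, and by 3.19 on starch. Tyrp1, a melanosomal enzyme, read 0.04, 0.01, 0.15 and 0.08 and changed by 2.47 and, on starch, by 1.87. For these 3 genes both heterozygous arrays were above both wild-type arrays. Oca2 changed by 1.29 on sucrose and 0.31 on starch. Tyr, the first enzyme of melanin synthesis, changed by -0.13, Gpr143 by -0.22 and Sox10, which oligodendrocytes also express, by 0.08.

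MITF, the master factor of pigment cells, binds a site whose core is TCATGTG, and the windows of Dct and Tyrp1 are printed because both genes carry it and both passed 2-fold. RefSeq promoters (GRCm38.p6, 250 bases before the start) were matched for 10 of the 14 genes, as 14 promoters, and 5 of these (35.7%) held TCATGTG or its reverse complement CACATGA, against 3.25% of all 32851. The median change was 0.38 for the 5 genes with it and 0.57 for the 5 without. The core is in capitals, and the windows are Dct at chr14:118052364-118052424 (minus strand) and Tyrp1 at chr4:80834139-80834199 (plus strand).
Dct: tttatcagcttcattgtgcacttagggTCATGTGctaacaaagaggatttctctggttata
Tyrp1: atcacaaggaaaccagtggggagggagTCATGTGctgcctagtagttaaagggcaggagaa

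Hypothalamic and pituitary genes moved in both directions, mostly at low signal. Of 20 measured, 2 were higher and 3 lower by 2-fold, against 1.39% and 0.349% of all genes. The median was -0.24, and it was -0.10 with normexp background correction and -0.11 over probes above the median signal. Prl, the pituitary hormone prolactin, read 0.01, 0.03, 0.11 and 0.01 and changed by -1.53 on sucrose and 3.39 on starch. Oxt, the oxytocin precursor, read 0.32, 0.07, 0.08 and 0.16 and changed by 1.16, with 0.15 for its second probe, and by -1.99 on starch. Gh, growth hormone, was measured on the wild-type side only, and was at least 2.11-fold lower in the heterozygotes. Nts, the neurotensin precursor, changed by -1.19 and Cartpt by -1.16, and both are also expressed in striatal neurons. Avp changed by 0.74 and Vgf by -0.01. Of 15 thalamic and septal genes, Calb2 and Lhx9 were higher by 2-fold, against 1.39% of all genes. The median was 0.22, and it was 0.05 above the median signal, 0.12 with normexp and 0.36 with the mean of a gene's probes. Lhx9, a LIM homeobox factor, read 0.04, 0.04, 0.04 and 0.27 and changed by 2.89, with 2.51 for its second probe, while Rora changed by -0.22, Slc17a6 by -0.15 and Sln by 0.68.

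**Figure D4:**
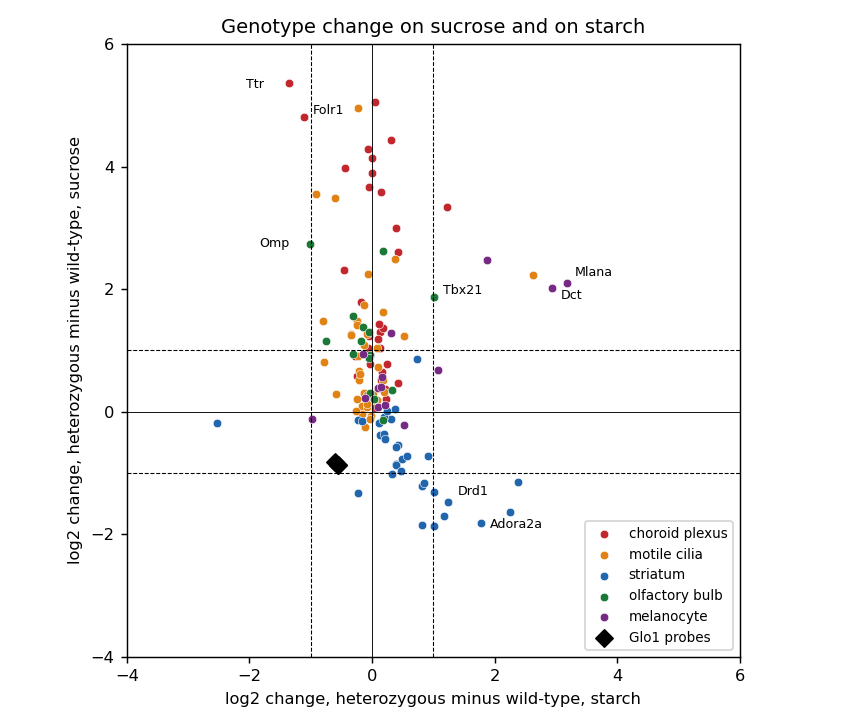
Log2 change of heterozygous against wild-type on sucrose (y axis) and on starch (x axis) for the genes of 5 lists and the Glo1 probes; the pairs share no array. Dashed lines mark 2-fold. Choroid plexus and ciliary genes lie high on sucrose and mostly near 0 on starch, striatal genes lie at the lower right, and Dct and Mlana at the upper right.

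The sucrose and starch pairs share no array, so their changes can be set side by side. Over all 42094 probes the correlation of the changes was weak, with Pearson's r of 0.08 and Spearman's rho of 0.17, given as a description of probes on a shared slide. Of the 456 probes higher on sucrose, 221 were higher on starch, 12 of them by 2-fold, and 11 were lower by 2-fold. Of the 147 lower on sucrose, 62 were lower on starch, 3 of them by 2-fold, and 20 were higher by 2-fold. Over all probes, 395 (0.938%) passed 2-fold on starch in either direction, and 47.4% were higher in the heterozygotes on starch.

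The lists for glia and vessels held few or no genes past 2-fold, and with 1.73% of all genes past it, lists of their size would hold few at the share of all genes. None of 20 microglial, 30 oligodendrocyte, 16 mural cell and 24 meningeal fibroblast genes passed 2-fold, and their medians were -0.04, 0.07, 0.02 and 0.01, the last 2 turning negative with median scaling. Of 21 astrocyte genes 1 passed 2-fold: Gfap, the intermediate filament of astrocytes, which read 2.05, 1.29, 2.24 and 2.86 and changed by 1.16, with 0.93 for its second probe. Here too the wild-type sucrose array was the lowest. Vim, another such filament, changed by 0.26, Aldoc by -0.14 and Aldh1l1 by -0.18, and the list's median of -0.01 turned positive with quantile normalisation and loess. Among endothelial genes Podxl changed by 1.02, and the median of 26 was 0.01, negative with median scaling and above the median signal. In meningeal fibroblasts Dcn, a matrix proteoglycan, changed by 0.95 and Igf2, which the choroid plexus also expresses, by 0.65. Of 30 myelin genes 25 were higher, by small amounts: Fa2h changed by 0.30 and Mbp by 0.24. Microglial Cd74 changed by 0.30 and Siglech by 0.03. Haemoglobin and haem genes had a median of 0.15, with Hbb-b2 at 0.40, Alas2 at 0.39 and Hba-a2 at 0.15. Hba-a2 read 113.5, 58.2, 97.3 and 64.5, so both sucrose arrays were below both starch arrays.

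No listed gene of neuronal activity, stress or the clock passed 2-fold, where 1.73% of all genes did, so counts of 0 are near the share of all genes. Of 31 immediate early genes, which neurons switch on within minutes of activity, 20 were lower and the median was -0.07. On starch 27 were higher and 4 lower, with a median of 0.12. On sucrose 11028 of all 20064 genes were lower and, in the brightest quartile, 70.1% of genes. Fos read 1.89, 1.21, 2.28 and 0.97 and changed by -0.33, and the phosphatase gene Dusp1 by -0.38, whereas Jun changed by 0.46, Dusp4 by 0.61 and Dusp5 by 0.76. Clock genes were lower in 16 of 21, to be read beside the same shares of lower genes. Their median was -0.12 on sucrose and 0.06 on starch. The output genes Ciart and Dbp changed by -0.41 and -0.37, Per1 and Per2, which repress the clock, by -0.17 and -0.12, and Arntl, the activator that peaks opposite to them, by 0.28. Dbp read 18.4 on the starch wild-type array, 25.5 on the sucrose wild-type array, 18.4 on the starch heterozygous array and 19.7 on the sucrose heterozygous array, so the wild-type sucrose array was the high one. The time of day of death was not given in the sources used here. Glucocorticoid target genes had a median of -0.10, with Nfkbia at -0.52 and Nr3c2, the mineralocorticoid receptor, at 0.87 by 1 probe and 0.80 to 0.88 by the others. Endoplasmic reticulum stress genes had a median of -0.04 and heat shock genes one of 0.00, signs that turned with cyclic loess and median scaling respectively. Sdf2l1, an ER chaperone partner, changed by -0.18, Atf3 by 0.56, Hspa1a by 0.12 and Bag3 by 0.31. Interferon-induced genes had a median of 0.07, with Bst2 at 0.56 and Ifit1 at -0.12.

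Partners of Glo1 showed no shared shift. Of the 28 measured genes of glyoxalase, carbonyl and glutathione metabolism, which include Glo1 itself, 1 passed 2-fold, against 1.73% of all genes. The median of the 28 was -0.02, positive with quantile normalisation and loess. Hagh, which encodes glyoxalase 2, read 9.12, 8.36, 7.58 and 6.88 and changed by -0.28 on sucrose and -0.27 on starch, both heterozygous arrays being below both wild-type arrays. Akr1b8, an aldo-keto reductase that reduces reactive carbonyls, read 0.63 on the starch wild-type array, 0.63 on the sucrose wild-type array, 0.66 on the starch heterozygous array and 1.51 on the sucrose heterozygous array, a change of 1.27 by its single probe. Its relative Akr1a1 changed by -0.09, Park7 by -0.13, the aldehyde dehydrogenases Aldh1a1 and Aldh2 by 0.26 and 0.05, Nqo1, a target of the oxidative stress factor NRF2, by 0.34 and Ager, the receptor for glycation products, by -0.05. Fn3k, a kinase that repairs glycated proteins, changed by -0.25, with other probes from -0.27 to 0.27.

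Energy genes were lower by small amounts. All 36 genes of the respiratory chain were lower, with a median of -0.10, as were 28 of 35 glycolytic genes, with a median of -0.10, and 25 of 29 sterol and lipid genes, with a median of -0.16. On starch, 28 of 36 respiratory genes, 28 of 35 glycolytic genes and 13 of 29 sterol and lipid genes were lower. Their starch medians were -0.06, -0.06 and 0.02. These genes are bright, and the share of lower genes in the brightest quartile of all genes was the 70.1% given above. Under cyclic loess, the respiratory median on sucrose was -0.02. Cox6a1, a subunit of complex IV, read 158.0, 153.7, 149.1 and 130.3 and changed by -0.24, Cox7c by -0.27, with 0.18 for its second probe, and Cox5a by -0.22. In glycolysis Pgk1 changed by -0.27, Aldoa by -0.12, Slc16a3, a lactate transporter, by -0.56 and Hk2 by 0.41. Among sterol and lipid genes, Srebf1, the factor that switches on lipid synthesis, changed by 0.10. Receptor genes of the synapse had a median of -0.02, positive with quantile normalisation and loess, with Gabra5, a GABA receptor subunit of the hippocampus, at 0.65 by 1 probe and 0.73 by the other, Gria1 at 0.43 and Gabrd at -0.45. Of the 14 control genes, 10 were lower on sucrose and 13 on starch. Their median on sucrose was -0.05, which turned positive with the same settings. On sucrose, the control gene Actb changed by 0.01, Ppia by -0.06 and Gapdh by -0.17.

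The highest genes outside the lists were Dsp, desmoplakin of cell junctions, at 4.14 and Wfdc2, a secreted protease inhibitor, at 3.69. Dsp read 0.01, 0.02, 0.02 and 0.42, and Wfdc2 0.06, 0.08, 0.07 and 1.08, with the sucrose heterozygous array alone high in both. Among genes above the median signal, Ecrg4, a secreted peptide precursor of choroid plexus and other epithelia, read 0.29, 0.29, 0.29 and 2.93 and changed by 3.33. Spink8 changed by 2.38, Lct, lactase, by 2.36 and Tspan18, a tetraspanin, by 2.32, with other Tspan18 probes from 1.64 to 2.30. Ms4a15 changed by 2.50, with 2.59 for its second probe, and read 1.30, 0.15, 1.51 and 0.84, the order of the olfactory bulb genes.

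The lowest genes were dim and read by few probes. 1700019M22Rik read 0.01 on the starch wild-type array, 0.14 on the sucrose wild-type array, 0.01 on the starch heterozygous array and 0.01 on the sucrose heterozygous array, a change of -3.55. The same single high array, the wild-type one on sucrose, set the values of 4930429E23Rik (-3.28), Olfr316 (-2.88), D230030E09Rik (-2.60), Pdcd1 (-2.55), Foxo4 (-2.39), Redrum (-2.34), 6330537M06Rik (-2.33), Gm4583 (-2.26), Dram1 (-2.24) and Slc18a1 (-2.08). Of these, only Olfr316 had a second measured probe, which changed by -0.60. Slc10a4l, at -2.03, was also high on the starch heterozygous array. Among genes above the median signal, the lowest outside the striatal and hormone lists were Wdfy1 at -1.04, with other probes from -0.87 to 0.05, Tia1, an RNA-binding protein, at -1.01, with 5 other probes from -0.08 to 0.10, and Nxph3 at -0.97. The opioid receptor gene Oprk1 read 0.18, 0.65, 0.29 and 0.34 and changed by -0.92, with -1.50 for its second probe, and so again had its highest level on the wild-type sucrose array.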

How the data were processed

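Prefrontal cortex RNA of 4 groups was measured on 4 one-colour Agilent arrays, 1 pool of 3 mice each, grouped by the sample labels. The deposited intensity values were processed signals of Agilent Feature Extraction 11.5.1.1, background-subtracted and detrended within the array per the file headers. The authors also deposited a ratio per spot, which equalled the processed signal over 1 constant per array, close to that array's 75th percentile. Coordinates are those of the files, on build mm9.

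From the files, log2 signal was scaled to the 75th percentile of the non-control spots on the same array (1780 to 1929 intensity units). Control and outlier spots were left out, and spots of a probe were averaged. Probes well above background on all 4 arrays were used, and a gene took its brightest probe. A probe measured on 1 side gives a bound against the higher of its own signal and the lowest signal well above background on that array. Of 20064 gene names, 18150 were RefSeq symbols (GRCm38.p6), 817 were older symbols in that table and 1097 were in neither, so that the files' names were kept. With 1 array a side, no test was run and the number of arrays limits the precision.

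Named genes were Glo1, the 12 highest and 12 lowest genes, the same 12 and 12 among genes above the median signal, list members past 2-fold, and the 2 highest, 2 lowest and brightest of each list. The comparison and the gene lists were chosen with earlier results of these data known. Python 3.11.15, pandas 2.3.3, R 4.3.3 and limma 3.58.1 (normexp, quantile normalisation and cyclic loess alternatives) were used, and the steps were tested on simulated data. Other settings tried were the scaling, normalisation, background, filter, flags, threshold, the authors' ratios and the rule for probes of a gene. Results for some genes that the naming rule takes in are not reported here.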

Additional observations from a re-analysis of the deposited data

Results flagged for a closer look

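Of all genes, 18 passed 2-fold in one direction on sucrose and in the other on starch, and 15 of them were in a list or taken in by the naming rule. Each diet and genotype had 1 array, so the difference between the diets was not tested. The rule of 2-fold in opposite directions was chosen after the data had been seen. The differences below are the log2 change on sucrose minus that on starch.

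Of the striatal genes, Six3 differed by -3.88 (-1.63 on sucrose, 2.25 on starch), Adora2a by -3.59 (-1.81 and 1.78), Sh3rf2 by -3.54 (-1.15 and 2.39), Gpr6 by -2.88 (-1.71 and 1.17), Ido1 by -2.88 (-1.86 and 1.02), Drd1 by -2.73 (-1.48 and 1.25) and Rgs9 by -2.32 (-1.31 and 1.01). The cholinergic gene Slc10a4 differed by -3.65 (-1.79 and 1.86), and Slc10a4l by -3.58 (-2.03 and 1.55). Among peptide and hormone genes, Prl differed by -4.92 (-1.53 and 3.39), Nts by -2.47 (-1.19 and 1.28) and Oxt by 3.15 (1.16 and -1.99). The choroid plexus genes Ttr and Folr1 differed by 6.72 (5.37 and -1.35) and 5.92 (4.80 and -1.12), and the olfactory gene Omp by 3.75 (2.74 and -1.01). The other 3, named after their values were seen, were Cltrn at 5.36 (2.91 and -2.45), Fzd8 at 3.35 (1.504 and -1.842) and Gm33651 at -2.64 (-1.45 and 1.19).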

How the results depend on the processing

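The Glo1 change stayed between -0.91 and -0.83 under every setting run. The counts moved by over 1.5 times with the background step, the filter on dim probes and the threshold. With normexp background correction, which adds an offset of 50 to each signal and so shrinks dim changes, 230 probes passed 2-fold on sucrose (181 higher, 49 lower), all among the 603. By gene, 157 did (132 higher, 25 lower), and on starch 100 probes did in place of 395. With no filter on dim probes, 3083 probes passed (1606 higher, 1477 lower), 1473 genes (798 higher, 675 lower) and 3052 probes on starch, and the share of higher probes was 52.1% in place of 75.6%. Above the median signal, 81 probes passed (67 higher, 14 lower), 69 genes (59 higher, 10 lower) and 41 probes on starch, with 82.7% higher. At 1.5-fold, 1789 probes passed (1208 higher, 581 lower). Of the 603 probes, 569 passed under median scaling, 581 under quantile normalisation and 585 under cyclic loess.

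The choroid plexus median was 1.26 with normexp, 1.61 with no filter, 1.18 above the median signal and 1.61 over probes measured on both sucrose arrays. The cilia median was 0.51, 0.77 and 0.31 with the first 3 of these and 0.86 with the mean of a gene's probes. The striatal median was -0.62 with normexp and -0.55 above the median signal, and the olfactory bulb median 0.88 and 0.93. These 4 medians were chosen as main results after the data had been seen. Of 44 named genes past 2-fold, 41 passed with normexp, without Redrum, 6330537M06Rik and Wdfy1, and 42 with quantile normalisation and with loess, without Scn4b and Tia1. With the mean of a gene's probes, Tac1 (-0.82), Wdfy1 (-0.62) and Tia1 (-0.14) did not pass. The size of dim changes moved with normexp: Wdr63 went from 4.96 to 2.49, Dsp from 4.14 to 2.71 and 1700019M22Rik from -3.55 to -1.83. No paired analysis was possible because each group had 1 array, and leaving out an array leaves no comparison. The cause of the other moves was not tested. Changes of dim probes are the least certain: in the dimmest quartile another probe of the gene moved the same way by 1.5-fold or more in 29.9% of cases.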

Other observations

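A list of 32 genes of the hippocampus, a structure that lies beside the ventricles behind the frontal cortex, was written after the largest changes had been seen, and 9 of its genes were chosen with their values known. Of the 32, 31 were measured and 27 were higher on the sucrose heterozygous array, 14 of them by 2-fold or more against 1.39% of all genes, with a median change of 0.87 that includes the 9 genes chosen by their values, against -0.05 on starch. That median was 0.58 with normexp background correction and 0.30 over probes above the median signal. That the values of all the other 23 genes were unseen is not certain, since Nr3c2 was also the highest gene of the glucocorticoid list. Of these 23, 22 were measured, 18 were higher and 5 were higher by 2-fold, with a median of 0.30. Among them were C1ql2, a synaptic protein of dentate granule cells, at 1.71, Cd109 at 1.36, the growth factor gene Ntf3 at 1.09 and Amigo2, a marker of the CA2 and CA3 fields, at 1.05.

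Of the genes chosen with their values known, Prox1, a factor of dentate granule cells, changed by 1.79, Cabp7 by 2.29 and Fibcd1, of CA1 neurons, by 2.30. The brightest genes of the list changed little: Mpped1 by -0.18, Wfs1 by -0.02 and C1ql3 by 0.07. Among genes below these in level, Rgs14 changed by 0.22, and Sema5a by 0.11 by its brightest probe and by 0.61 to 0.78 by its others. Zbtb20, a factor of hippocampal neurons and of glia, changed by 0.89, with 0.93 and 0.98 at the ends of its other probes, and Nr3c2 by 0.87. The part of other brain regions in the heterozygous sucrose pool was not tested.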
